A study of Mus musculus with 12 samples.

Results

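Respiratory complex I (NADH:ubiquinone oxidoreductase) was followed through the 52 genes whose symbols start with Ndufa, Ndufb, Ndufc, Ndufs, Ndufv or Ndufaf, of 57180 genes in the RNA-seq tables. The rule used symbols alone and left out 3 genes with a -ps symbol. The 52 members comprise 37 nuclear subunits (10 of the NADH-binding N module, 6 of the quinone-binding Q module, 9 of the proximal and 11 of the distal membrane arm, and the acyl carrier Ndufab1), 8 Ndufaf assembly factors, Ndufa4 and Ndufa4l2, which carry the name without being complex I subunits, and 5 gene copies. All libraries came from the E14 mouse embryonic stem cell (ESC) line with doxycycline-inducible CRISPR interference, in which a repressor is brought to the promoters that guide RNAs target. Neg cells carried scramble guides. 3xKD cells carried guides to Pcx, Me1 and Me2, which encode pyruvate carboxylase and the cytosolic and mitochondrial malic enzymes. Each line was sampled as ESCs in 2iLIF and as epiblast-like cells (EpiLCs) at day 2 of a switch to Activin A, Fgf2 and XAV939, which gave 4 groups of 3 libraries. Doxycycline was given to all cells, the parental CRISPRi line was grown from a single picked clone, and the methods describe replicates as biological.

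Complex I is the entry point for electrons from NADH into the mitochondrial respiratory chain, and it pumps protons while it passes them to ubiquinone. A peripheral arm in the matrix holds the flavin, the iron-sulfur clusters and the quinone site, and a membrane arm holds the proton channels, whose central subunits are encoded by mitochondrial DNA. Dedicated assembly factors join the pieces and then leave. Naive pluripotent cells use both respiration and glycolysis, and primed cells are known for a stronger reliance on glycolysis.

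The libraries held 11221023 to 19652197 estimated counts. In a fit of all 12 libraries with edgeR's quasi-likelihood test, 25446 genes were tested and p-values were adjusted over all of them. "Passed" below means an adjusted p under 0.01, and "both limits" adds an absolute log2 fold change above 0.58. The targeted genes were lower in 3xKD in both states, by 0.89 (Me1 in ESCs) to 1.14 (Pcx in ESCs) on the log2 scale. Summed CPM of 8 naive markers lay between 4743 and 4895 in Neg ESCs, 3777 and 3856 in 3xKD ESCs, 279 and 291 in Neg EpiLCs and 410 and 420 in 3xKD EpiLCs. Summed CPM of 7 formative and primed markers lay between 3090 and 3452 in Neg EpiLCs and between 1805 and 1869 in 3xKD EpiLCs. Trophoblast markers summed to at most 50.5 CPM in Neg ESCs and at least 60.4 CPM in 3xKD ESCs, and 2 of 6 were higher and 1 lower in 3xKD ESCs. These sums were 10.8 to 12.7 CPM in Neg EpiLCs and 28.3 to 30.2 CPM in 3xKD EpiLCs. Fibroblast markers summed to 10.6 to 13.8 CPM in Neg ESCs and 31.5 to 32.4 CPM in 3xKD ESCs, where 2 of 5 tested were higher, and to 6.70 to 8.32 CPM in Neg EpiLCs and 13.6 to 17 CPM in 3xKD EpiLCs. Of the latter, Dcn and Col1a2 stayed at means below 1 CPM in every group. Primitive endoderm markers summed to 22.2 to 25.0 CPM in Neg ESCs and 30.5 to 32.9 CPM in 3xKD ESCs, and to 27.1 to 32.0 CPM in Neg EpiLCs and 24.0 to 25.4 CPM in 3xKD EpiLCs. Mesoderm and neural markers summed to 69.1 to 70.9 CPM in Neg EpiLCs and 23.8 to 28.0 CPM in 3xKD EpiLCs, and their sums overlapped in ESCs. How much these shifts in cell state contribute to the values of the members was not tested. In bulk RNA, fewer cells of a type and less RNA per cell cannot be told apart.

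Of the 52 members, 49 passed the filter of 10 counts over all libraries. The copies Ndufa11b, Ndufb4b and Ndufs6b did not, with 9, 6 and 7 counts in all libraries together. The median count of a tested member was 481 per library. Levels compared between genes are TPM, which are scaled for transcript length. In Neg ESCs the 37 subunits had a median of 49.9 TPM and ranged from 11.7 TPM for Ndufb1, a small distal-arm subunit, to 170 TPM for Ndufa7, an accessory subunit of the N module. The N module and both membrane arms each held members on both sides of that median. The 8 Ndufaf assembly factors lay lower, between 7.25 TPM for Ndufaf5 and 18.5 TPM for Ndufaf3, with a median of 11.3 TPM. Protein-coding genes took 37.9% to 54.2% of the TPM of a library, so levels across libraries were compared as CPM. As a share of protein-coding TPM, members held 0.551% to 0.568% in Neg ESCs, 0.586% to 0.601% in 3xKD ESCs, 0.492% to 0.502% in Neg EpiLCs and 0.505% to 0.521% in 3xKD EpiLCs.

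**Figure D1:**
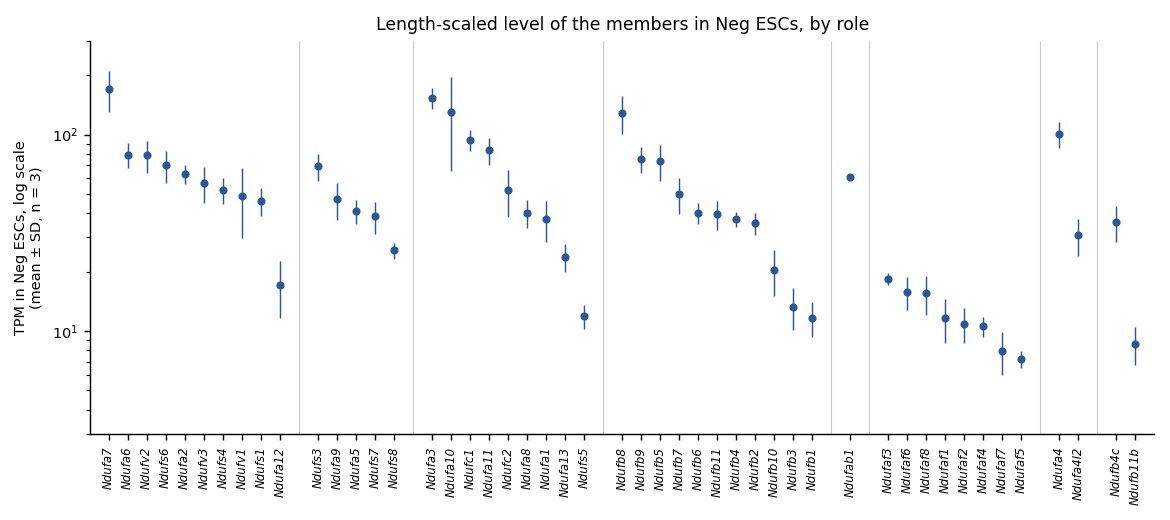
TPM of tested members in Neg ESCs (log axis; 1 core subunit is not shown), ordered within the N module, Q module, proximal arm, distal arm, acyl carrier, assembly factors, Nduf-named genes outside the complex and copies; points are means and bars SD of 3 libraries. Subunits centre on 49.9 TPM and all 8 assembly factors sit at or below 18.5 TPM.

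The first comparison set 3xKD against Neg in ESCs. With a single line for each set of guides, repression of the targets and other differences between the lines cannot be told apart. The words "3xKD effect" below stand for the difference between the lines. More members were higher than lower in 3xKD ESCs, and the differences were small. Of the 49 tested, 12 (24.5%) passed as higher and 2 (4.08%) as lower. All tested genes gave 15.6% higher and 16% lower, and the 11293 genes averaging 5 CPM or more gave 27.3% and 31.4%. Every tested member averaged at least 6.25 CPM. Beside genes at 5 CPM or more, the share higher was near the general share and the share lower was below it. The median log2 fold change of the members was 0.18, with 38 of 49 above 0, beside 0.03 over all tested genes. Only Ndufa4l2 and Ndufb4 met both limits, a rule met by 15.3% of tested genes and 21.9% of those averaging 5 CPM or more. All 3 libraries of 3xKD lay above all 3 of Neg for 22 members and below for 3, against 25.2% and 23.8% of all tested genes and 35% and 39.2% of those at 5 CPM or more. Summed over members, expression was 1798 to 1854 CPM in Neg ESCs and 2013 to 2044 CPM in 3xKD ESCs. The sums of the groups did not overlap. With transcript-length offsets, 7 members were higher and 1 was lower. The offsets also lowered the counts over all tested genes, from 3982 to 2358 higher and from 4066 to 2031 lower.

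In EpiLCs day 2 the same comparison was balanced. Of the 49 tested, 6 (12.2%) passed as higher and 7 (14.3%) as lower in 3xKD. The shares were 14.3% and 15.6% of all tested genes and 25.3% and 32% of those at 5 CPM or more. The median log2 fold change was -0.01, and Ndufb4c and Ndufaf4 met both limits, which 13.2% of tested genes did (19.9% at 5 CPM or more). The members summed to 1618 to 1705 CPM in Neg and 1581 to 1682 CPM in 3xKD, and the ranges overlapped. Groups did not overlap for 8 members that were higher and 9 that were lower in 3xKD, against 24.1% and 23.1% of all tested genes and 32.3% and 39.8% at 5 CPM or more. With transcript-length offsets, 2 members were lower, while the count of all tested genes that were lower went from 3962 to 2088. Among members that were higher, Ndufa4l2, Ndufb4, Ndufb4c and Ndufb11b kept the call in every alternative fit. Both states called Ndufa4l2, Ndufa7, Ndufaf7, Ndufb11b and Ndufb4 higher, which is 41.7% of the 12 in ESCs and 83.3% of the 6 in EpiLCs. Both called Ndufaf4 and Ndufaf8 lower, which is 100% of the 2 in ESCs and 28.6% of the 7 in EpiLCs. The same lines were compared in both states. The overlap over all tested genes was not computed, so whether members share more calls than other genes is not known.

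From ESCs to EpiLCs day 2 most of the members that changed fell. In Neg cells 15 members (30.6%) passed as lower and 5 (10.2%) as higher, against 18.2% and 17.5% of all tested genes. The median log2 fold change was -0.10. In 3xKD cells 23 (46.9%) passed as lower and 1 (2.04%) as higher, against 17.9% and 15.9% of all tested genes, with a median of -0.26. Of genes averaging 5 CPM or more, 32.2% fell and 29.3% rose in Neg, and 32.8% fell and 26% rose in 3xKD. The share of members that fell in Neg was thus near the share over these genes. In Neg 20 members had every EpiLC library below every ESC library and 8 above, against 25.5% and 26.2% of all tested genes and 38.4% and 35.7% at 5 CPM or more. In 3xKD the counts were 28 below and 2 above, against 25.7% and 25.9% of all tested genes and 40.8% and 33.1% at 5 CPM or more. Both limits were met in Neg by Ndufa3, Ndufa4l2, Ndufb4c and Ndufb5, and in 3xKD by Ndufa3, Ndufa4l2, Ndufaf5, Ndufb4 and Ndufb9, a rule met by 20.8% and 18.7% of tested genes (28.1% and 25% at 5 CPM or more). The test of the difference between states in the 3xKD effect, which is also the test of the difference between lines in the transition, called 6 members, all with a lower value in EpiLCs, where 5.27% of all tested genes were called lower and 4.76% higher (11.1% and 9.66% at 5 CPM or more). With transcript-length offsets, 9 members fell in Neg, 13 fell in 3xKD and 1 differed between states, and without the first Neg ESC library 2 rose in Neg. Over all tested genes the offsets lowered the count that fell from 4635 to 2768 in Neg and from 4550 to 2670 in 3xKD. Between states, the count called lower went from 1342 to 394.

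**Figure D2:**
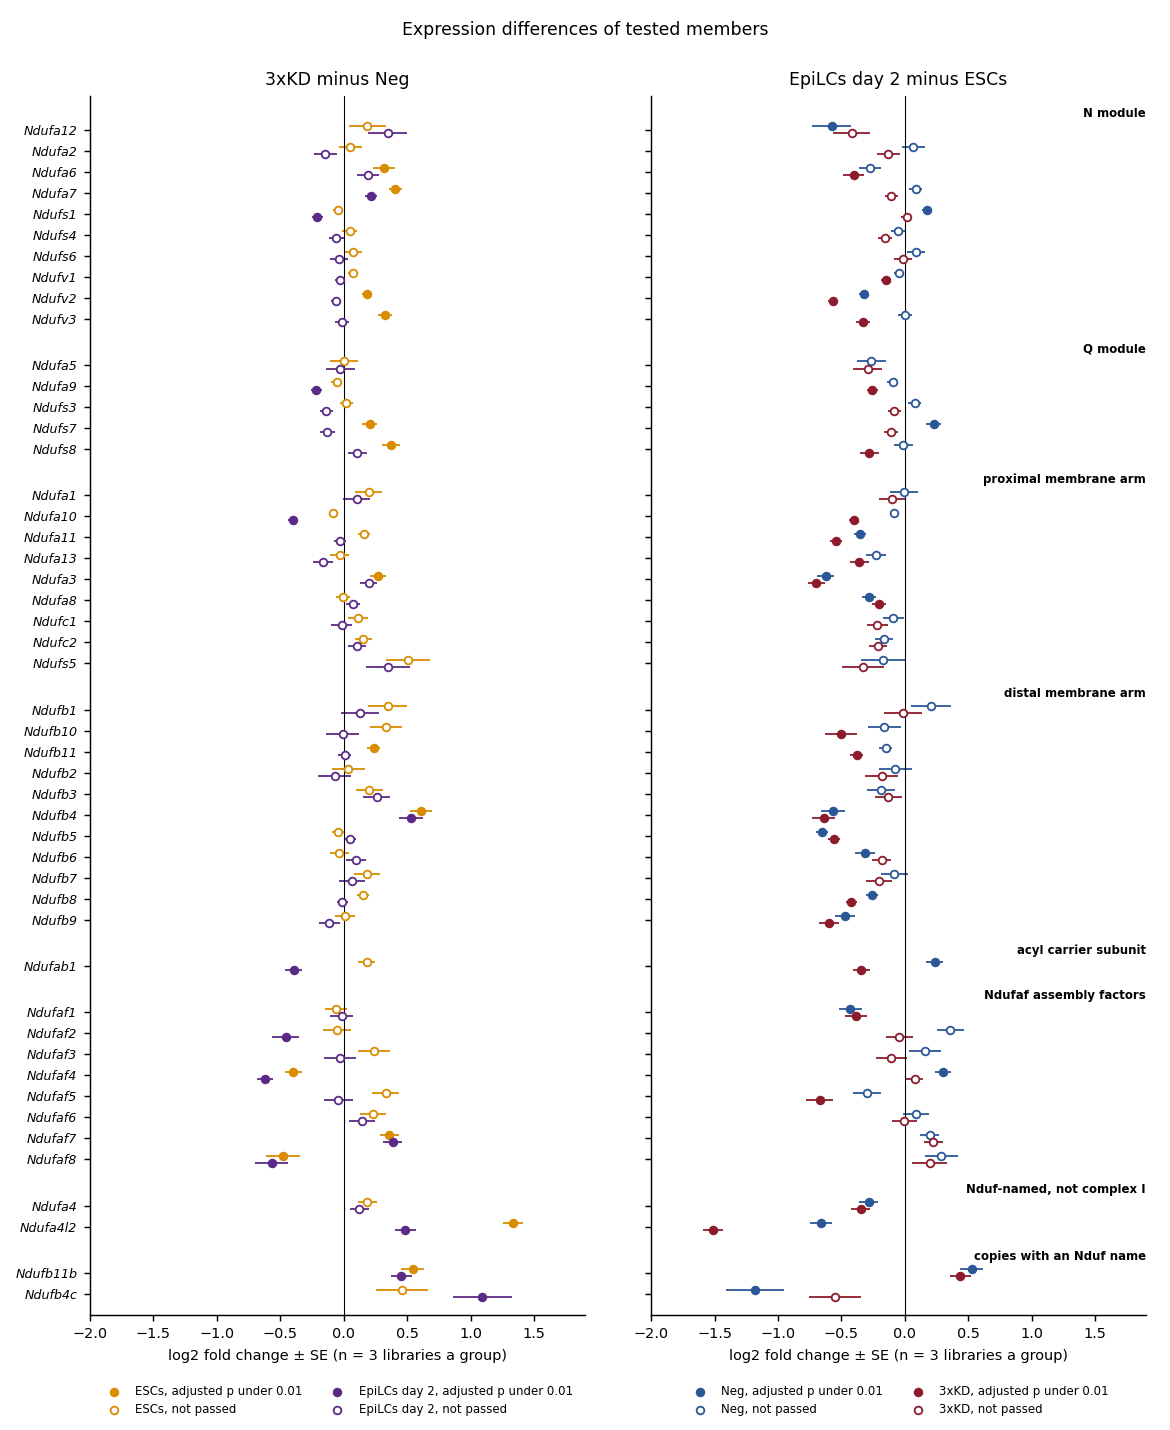
Log2 fold change with SE of tested members by role (3 libraries a group; 1 core subunit is not shown), 3xKD minus Neg on the left and EpiLCs day 2 minus ESCs on the right; filled points passed an adjusted p under 0.01. In ESCs 12 points on the left are filled above 0 and 2 below, and on the right most filled points lie below 0, the farthest being Ndufa4l2 in 3xKD at -1.51.

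The 7 nuclear core subunits, which carry the redox centres, differed in both size and direction. In 3xKD ESCs 3 passed as higher and none as lower, and in 3xKD EpiLCs none was higher and 1 was lower. Genes averaging 5 CPM or more gave 27.3% higher and 31.4% lower in ESCs and 25.3% and 32% in EpiLCs, so that these counts over 7 genes are a description. Ndufs8, an iron-sulfur subunit on the path to the quinone site, showed the largest fold change of the core in ESCs. It was measured at 28.7, 25.7 and 27.0 CPM in Neg ESCs and at 35.8, 36.4 and 33.1 CPM in 3xKD ESCs, a log2 difference of 0.37 ± 0.07 (SE, adjusted p = 0.00051). All 3 3xKD libraries lay above Neg. In EpiLCs the values were 28.3, 25.9 and 26.2 CPM in Neg and 27.9, 26.6 and 32.2 CPM in 3xKD, and the groups overlapped (0.11 ± 0.07, adjusted p = 0.29). Ndufs8 lies on chromosome 19, 597 kb from the targeted gene Pcx, and Ndufv1, the flavin-binding subunit, lies 497 kb from it. Ndufv1 differed by 0.07 ± 0.04 in ESCs (adjusted p = 0.13) and by -0.03 ± 0.04 in EpiLCs (adjusted p = 0.55). Whether the position of Ndufs8 plays a part was not tested.

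Ndufv2, which holds an iron-sulfur cluster beside the flavin, was measured at 86.4, 88.4 and 85.0 CPM in Neg ESCs, 101, 96.8 and 98.2 CPM in 3xKD ESCs, 70.0, 66.7 and 70.9 CPM in Neg EpiLCs and 67.6, 67.8 and 64.3 CPM in 3xKD EpiLCs. It was higher in 3xKD ESCs by 0.19 ± 0.04 (adjusted p = 0.00083) and showed no such difference in EpiLCs (-0.06 ± 0.04, adjusted p = 0.3). It fell on the transition in both lines, by 0.32 ± 0.04 in Neg and 0.57 ± 0.04 in 3xKD on the log2 scale, and the 3xKD effect differed between states (-0.24 ± 0.06, adjusted p = 0.0054).

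Ndufs7, which carries the last iron-sulfur cluster before ubiquinone, was among the members whose 3xKD effect differed between states. Neg ESCs gave 34.7, 36.8 and 34.7 CPM, 3xKD ESCs 41.3, 39.0 and 42.1 CPM, Neg EpiLCs 43.7, 40.3 and 39.9 CPM and 3xKD EpiLCs 40.1, 38.0 and 35.3 CPM. It was higher in 3xKD ESCs (0.21 ± 0.06, adjusted p = 0.0094), a call that 11 of 15 alternative fits lost, including those without each of the Neg ESC libraries and without 3xKD ESC library 1 or 3 (0.18 to 0.23). It rose in Neg cells on the transition (0.22 ± 0.06, adjusted p = 0.0046), which did not pass without Neg ESC library 1 or 3 (both 0.21, adjusted p = 0.018 and 0.023). In 3xKD cells the change was -0.11 ± 0.06 (adjusted p = 0.15) and the groups overlapped. The 3xKD effect differed between states by -0.33 ± 0.08 (adjusted p = 0.0097), close to the limit, and 14 of 20 alternative fits lost that call.

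Ndufs1, the largest core subunit, was measured at 107, 112 and 114 CPM in Neg ESCs, 105, 108 and 110 CPM in 3xKD ESCs, 128, 126 and 122 CPM in Neg EpiLCs and 108, 114 and 104 CPM in 3xKD EpiLCs. It rose in Neg cells by 0.17 ± 0.04 (adjusted p = 0.002) and was lower in 3xKD than in Neg EpiLCs by 0.21 ± 0.04 on the log2 scale (adjusted p = 0.00055). Of 15 alternative fits, 3 lost the rise, 1 of them without the first Neg ESC library (0.15, adjusted p = 0.012), and 2 lost the difference in EpiLCs. Ndufs3, a Q-module subunit of the peripheral arm, passed in none of the comparisons, and its log2 differences lay between -0.16 and 0.08.

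Over the whole peripheral arm, the 10 N-module members had 4 higher and none lower in 3xKD ESCs, 1 higher and 1 lower in 3xKD EpiLCs, and median log2 differences of 0.13 and -0.03. The 6 Q-module members had 2 higher and none lower in ESCs and 1 lower in EpiLCs, with medians of 0.06 and -0.08. On the transition in 3xKD cells, 4 N-module and 3 Q-module members fell and none rose. Genes averaging 5 CPM or more gave 27.3% higher and 31.4% lower in ESCs and 25.3% and 32% in EpiLCs. On the 3xKD transition 32.8% of them fell. The modules were not tested against these shares. Counts of Ndufa12 and Ndufs5 are uncertain, because the genes Ndufa12-ps (6089 counts over all libraries) and Ndufs5-ps (1731 counts) were assigned more reads than their namesakes, which had 3037 and 1250.

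On the transition, 5 of the 11 distal-arm members passed as lower in Neg and 6 in 3xKD, and none passed as higher. Of the 9 proximal-arm members 3 and 5 passed as lower and none as higher. Of all genes averaging 5 CPM or more, 32.2% and 32.8% were lower, and the arms were not tested against other genes. Ndufb5, a distal-arm subunit, showed the largest fall of a subunit in Neg, from 59.0, 62.0 and 61.0 CPM in ESCs to 38.1, 38.6 and 39.1 CPM in EpiLCs (-0.65 ± 0.05, adjusted p = 6.1e-09). In 3xKD it went from 59.5, 58.7 and 58.7 CPM to 37.5, 42.6 and 39.7 CPM (-0.56 ± 0.05). The ESC and EpiLC libraries did not overlap in either line, and at neither state did 3xKD differ from Neg past the test. Ndufa3, a proximal-arm subunit, fell from 26.9, 24.6 and 27.3 CPM to 18.2, 16.3 and 16.6 CPM in Neg (-0.62 ± 0.07) and from 31.9, 31.2 and 31.9 CPM to 18.4, 20.1 and 20.1 CPM in 3xKD (-0.70 ± 0.06). It was also 0.27 ± 0.06 higher in 3xKD ESCs (adjusted p = 0.0023), which no longer passed without the second Neg ESC library (0.23, adjusted p = 0.017). Ndufb9, a distal-arm subunit of the LYR family, fell by 0.47 ± 0.08 in Neg and, from 56.2, 56.3 and 51.9 CPM to 32.3, 35.2 and 41.1 CPM, by 0.60 ± 0.08 in 3xKD on the log2 scale.

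Ndufa10, a proximal-arm subunit, was among the members whose 3xKD effect differed between states. It was measured at 107, 111 and 107 CPM in Neg ESCs, 98.7, 105 and 103 CPM in 3xKD ESCs, 101, 99.5 and 106 CPM in Neg EpiLCs and 78.2, 77.9 and 76.3 CPM in 3xKD EpiLCs. The last group lay below all other libraries. The log2 difference between 3xKD and Neg was -0.08 ± 0.04 in ESCs (adjusted p = 0.096) and -0.40 ± 0.04 in EpiLCs (adjusted p = 2.6e-07), and the difference between them was -0.32 ± 0.05 (adjusted p = 0.00047). With transcript-length offsets the difference between states no longer passed. A transcript of 248 bases took 0% to 68.6% of Ndufa10 TPM, depending on the library. Other alternative fits are not given for this gene.

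Ndufab1, the mitochondrial acyl carrier protein, is both a complex I subunit and the carrier for mitochondrial fatty acid synthesis. Neg ESCs gave 29.7, 30.4 and 32.6 CPM and 3xKD ESCs 37.4, 34.8 and 33.3 CPM. Neg EpiLCs gave 37.9, 35.2 and 36.1 CPM and 3xKD EpiLCs 26.6, 30.3 and 26.2 CPM. The 3xKD libraries lay above Neg in ESCs and below it in EpiLCs. The difference was 0.18 ± 0.07 in ESCs, which did not pass (adjusted p = 0.037), and -0.39 ± 0.07 in EpiLCs (adjusted p = 0.00014), and the 3xKD effects differed by -0.58 ± 0.09 (adjusted p = 0.00036). With transcript-length offsets that difference was -0.64 and no longer passed (adjusted p = 0.077).

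**Figure D3:**
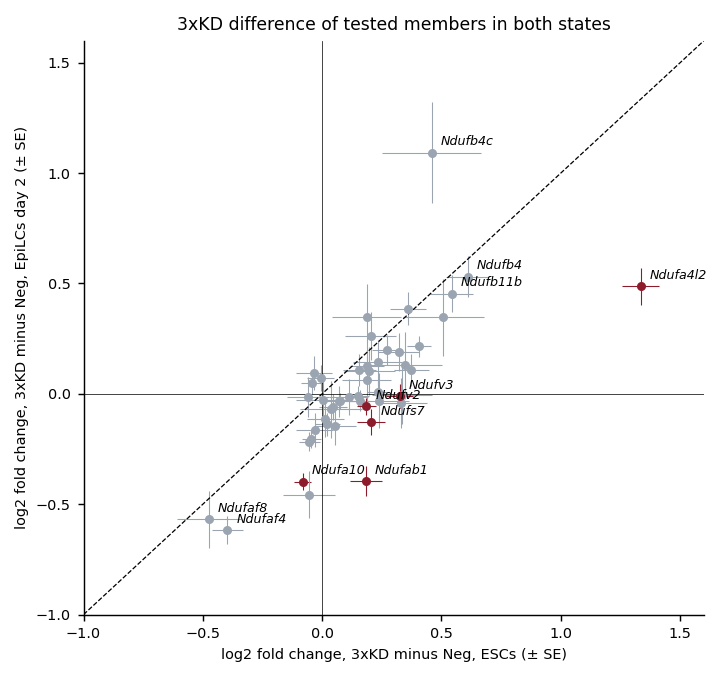
Log2 fold change of 3xKD minus Neg for tested members (1 core subunit is not shown), ESCs on the x axis and EpiLCs day 2 on the y axis, bars SE; the dashed line marks equal values and the 6 red points are members whose effect differed between states. The red points lie below the line, and Ndufaf4 and Ndufaf8 are at the lower left, below 0 in both states.

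The largest difference of any member in ESCs was that of Ndufa4l2 (10:127350818-127353038, plus strand, GRCm39), a paralog of Ndufa4 known as a hypoxia-responsive gene. It was measured at 34.9, 34.3 and 28.9 CPM in Neg ESCs and at 77.0, 85.5 and 83.6 CPM in 3xKD ESCs. In EpiLCs day 2 the values were 20.2, 20.8 and 20.6 CPM in Neg and 32.1, 28.5 and 25.7 CPM in 3xKD. 3xKD lay above Neg in every library of both states, by 1.33 ± 0.08 in ESCs (adjusted p = 8.1e-10) and 0.49 ± 0.08 in EpiLCs (adjusted p = 0.00019). The effects differed by -0.85 ± 0.12 (adjusted p = 6.4e-05), and all 20 alternative fits kept that call. Its exons share 63.3% of their bases with Shmt2 on the opposite strand. The library kit was directional, and the strand setting of the counting is not given in the sources used here. Ndufa4, now assigned to cytochrome c oxidase, differed by 0.19 ± 0.07 in ESCs and 0.12 ± 0.07 in EpiLCs and passed in neither (adjusted p = 0.05 and 0.21).

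The distal-arm subunit Ndufb4 (16:37467242-37474815, minus strand) was measured at 34.0, 27.8 and 32.2 CPM in Neg ESCs and 46.1, 50.3 and 46.8 CPM in 3xKD ESCs. In EpiLCs day 2 it was at 24.0, 18.3 and 21.1 CPM in Neg and 28.9, 33.6 and 29.5 CPM in 3xKD. The groups did not overlap in either state, with log2 differences of 0.61 ± 0.09 and 0.53 ± 0.09 (adjusted p = 3e-05 and 0.00022). The difference in ESCs lay just above 0.58 and was 0.52 to 0.67 over 16 alternative fits, with the test passed in each. Among the 454 genes of chromosome 16 averaging at least 1 CPM, the median log2 difference was 0.30 in both states. No other tested member lies there. The medians of the other autosomes and of X lay between -0.05 and 0.06. Ndufb4 lay above the median of its chromosome by 0.31 in ESCs and 0.23 in EpiLCs. What the chromosome contributes was not tested.

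Ndufb4 shares its coding sequence with Ndufb4c (15:73681356-73681745, minus strand), a transcribed processed copy without introns. All 390 bases of the copy match the Ndufb4 transcript, so a read inside them cannot be assigned to either gene. The first 120 of those bases are printed because they show why the split of counts is an estimate (both from the GRCm39 annotation, transcript sense, lower case throughout since no base differs).
Ndufb4: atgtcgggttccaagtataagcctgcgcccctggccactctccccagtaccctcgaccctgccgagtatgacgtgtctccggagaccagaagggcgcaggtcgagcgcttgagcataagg
Ndufb4c: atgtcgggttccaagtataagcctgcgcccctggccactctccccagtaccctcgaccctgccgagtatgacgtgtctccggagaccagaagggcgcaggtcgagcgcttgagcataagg
Ndufb4c was assigned 10.5, 7.09 and 6.83 CPM in Neg ESCs, 11.5, 9.82 and 11.7 CPM in 3xKD ESCs, 4.5, 2.89 and 3.16 CPM in Neg EpiLCs and 6.27, 5.95 and 10.4 CPM in 3xKD EpiLCs. Its log2 difference was 1.09 ± 0.23 in EpiLCs (adjusted p = 0.001) and 0.46 ± 0.21 in ESCs (adjusted p = 0.093). With the counts of Ndufb4 and its copies summed, which does not need the split, the log2 difference was 0.61 in ESCs and 0.63 in EpiLCs (adjusted p = 3.97e-05 and 5.24e-05). The sum fell on the transition by 0.63 in Neg and 0.61 in 3xKD on the log2 scale, and the 3xKD effect differed between states by 0.02 (adjusted p = 0.956).

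Ndufb11b (15:81864741-81865764, plus strand) was placed on the transcripts of Ndufb11 without gaps. At the best position 343 of 568 bases matched (60.4%), and the longest identical run was 25 bases. Matches with gaps and runs at other positions were not sought, so how many reads both genes could share is not known. Ndufb11b was the member that passed as higher in both lines on the transition. Neg went from 10.4, 11.1 and 10.3 CPM to 13.8, 16.8 and 15.1 CPM (0.53 ± 0.09, adjusted p = 0.00011), and 3xKD from 15.9, 15.1 and 15.3 CPM to 19, 22.1 and 21.6 CPM (0.44 ± 0.08, adjusted p = 0.00038). It was higher in 3xKD in both states, by 0.54 ± 0.09 and 0.45 ± 0.08 (adjusted p = 9.5e-05 and 0.00032).

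Among the 8 Ndufaf assembly factors, 1 was higher and 2 were lower in 3xKD ESCs, and 1 was higher and 3 were lower in 3xKD EpiLCs. Of all genes averaging 5 CPM or more, 27.3% were higher and 31.4% lower in ESCs and 25.3% and 32% in EpiLCs, and the assembly factors were not tested against these. Ndufaf4, which acts with Ndufaf3 on the early Q-module intermediate, was measured at 35.9, 35.0 and 36.9 CPM in Neg ESCs and 27.6, 28.3 and 25.9 CPM in 3xKD ESCs. In EpiLCs day 2 it was at 47.9, 41.8 and 43.0 CPM in Neg and 30.8, 27.0 and 28.6 CPM in 3xKD. 3xKD lay below Neg in every library of both states, by 0.40 ± 0.07 in ESCs (adjusted p = 0.0001) and 0.62 ± 0.06 in EpiLCs (adjusted p = 7.3e-07) on the log2 scale. With transcript-length offsets the differences were -0.18 and -0.44 and neither passed (adjusted p = 0.33 and 0.024). Ndufaf4 rose in Neg cells on the transition by 0.30 ± 0.06 (adjusted p = 0.00089), and 3xKD cells gave 0.08 ± 0.07 (adjusted p = 0.39).

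Ndufaf8, a partner of Ndufaf5, was at 7.8, 6.47 and 6.07 CPM in Neg ESCs, 5.16, 4.57 and 4.77 CPM in 3xKD ESCs, 7.45, 8.05 and 9.1 CPM in Neg EpiLCs and 5.09, 6.07 and 5.43 CPM in 3xKD EpiLCs. The groups did not overlap in either state. The difference was -0.48 ± 0.13 in ESCs (adjusted p = 0.0086), a call that 10 of 15 alternative fits lost, among them those without the first Neg ESC library (-0.37, adjusted p = 0.044) and without each 3xKD ESC library. In EpiLCs it was -0.57 ± 0.13 (adjusted p = 0.0019), and it no longer passed without the third Neg (adjusted p = 0.013) or the first 3xKD library (adjusted p = 0.012). Ndufaf2, which holds a late intermediate until the N module docks, passed as lower in 3xKD EpiLCs (-0.46 ± 0.11, adjusted p = 0.0025), with -0.05 ± 0.11 in ESCs, and 6 of 15 alternative fits lost the EpiLC call, among them those without Neg EpiLC library 2 (-0.40, adjusted p = 0.013) and without 3xKD EpiLC library 2 or 3 (both -0.44, adjusted p = 0.011). The difference between states did not pass (adjusted p = 0.093).

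Ndufaf5, an arginine hydroxylase of Ndufs7, was at 11.3, 9.57 and 10.1 CPM in Neg ESCs, 12.9, 13.1 and 12.9 CPM in 3xKD ESCs, 8.93, 7.72 and 8.41 CPM in Neg EpiLCs and 6.83, 8.44 and 9.12 CPM in 3xKD EpiLCs. It fell in 3xKD cells on the transition by 0.67 ± 0.11 on the log2 scale (adjusted p = 7.2e-05), and the fall of 0.30 ± 0.11 in Neg did not pass (adjusted p = 0.037). Ndufaf7, an arginine methyltransferase in the mitochondrial matrix, was the assembly factor higher in 3xKD, by 0.36 ± 0.08 in ESCs and 0.39 ± 0.07 in EpiLCs (adjusted p = 0.00096 and 0.00041).

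The promoters of Ndufaf4 and Ndufaf8, the members lower in 3xKD in both states, and of Ndufb4 are printed to show what the start regions of members that moved in opposite directions hold. They run from 250 bases before to 50 after the RefSeq start, 5′ to 3′ on the strand of the gene, in GRCm38.p6, a different build from the deposited tables. Capitals mark matches on the printed strand or its complement to CCGGAAG (the GABPA core), TGCGCA (NRF1), AAGATGG (YY1) or CACGTG (E-box), motifs of factors known to regulate respiratory genes.
Ndufaf4, chr4:24897833-24898132, plus strand: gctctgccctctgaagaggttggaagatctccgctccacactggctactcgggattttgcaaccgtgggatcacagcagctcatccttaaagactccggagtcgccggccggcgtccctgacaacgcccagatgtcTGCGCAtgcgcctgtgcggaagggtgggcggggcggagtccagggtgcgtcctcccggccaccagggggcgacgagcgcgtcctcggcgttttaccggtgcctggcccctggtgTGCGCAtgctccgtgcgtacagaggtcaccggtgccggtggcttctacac
Ndufaf8, chr11:120098684-120098983, plus strand: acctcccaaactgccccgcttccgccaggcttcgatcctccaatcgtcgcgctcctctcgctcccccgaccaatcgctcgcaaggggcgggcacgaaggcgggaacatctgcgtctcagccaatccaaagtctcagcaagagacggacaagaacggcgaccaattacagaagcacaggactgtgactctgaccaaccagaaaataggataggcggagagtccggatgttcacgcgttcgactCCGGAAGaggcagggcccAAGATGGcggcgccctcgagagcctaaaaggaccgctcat
Ndufb4, chr16:37654319-37654618, minus strand: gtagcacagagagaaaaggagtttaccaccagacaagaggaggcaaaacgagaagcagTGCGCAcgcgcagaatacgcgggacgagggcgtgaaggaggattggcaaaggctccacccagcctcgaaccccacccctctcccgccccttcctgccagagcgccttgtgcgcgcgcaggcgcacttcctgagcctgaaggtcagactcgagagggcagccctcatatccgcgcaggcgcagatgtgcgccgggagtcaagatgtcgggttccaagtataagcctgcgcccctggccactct
Ndufaf4 holds 2 NRF1 matches, Ndufaf8 holds 1 GABPA and 1 YY1 match close together, and Ndufb4 holds 1 NRF1 match. The table held 44 promoters of 42 members. Over these, 27.3% held TGCGCA, 18.2% AAGATGG, 13.6% CCGGAAG and 6.82% CACGTG, against 7.76%, 6.34%, 8.86% and 7.15% of all 32851 promoters of the same length. At least 1 of the 4 motifs was present in 54.5% of member promoters and 25.6% of all promoters. The promoters compared were not matched for GC content or expression. Ndufa5 and Ndufa7 each entered with 2 promoters that overlap. A match in these letters is not a bound site.

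**Figure D4:**
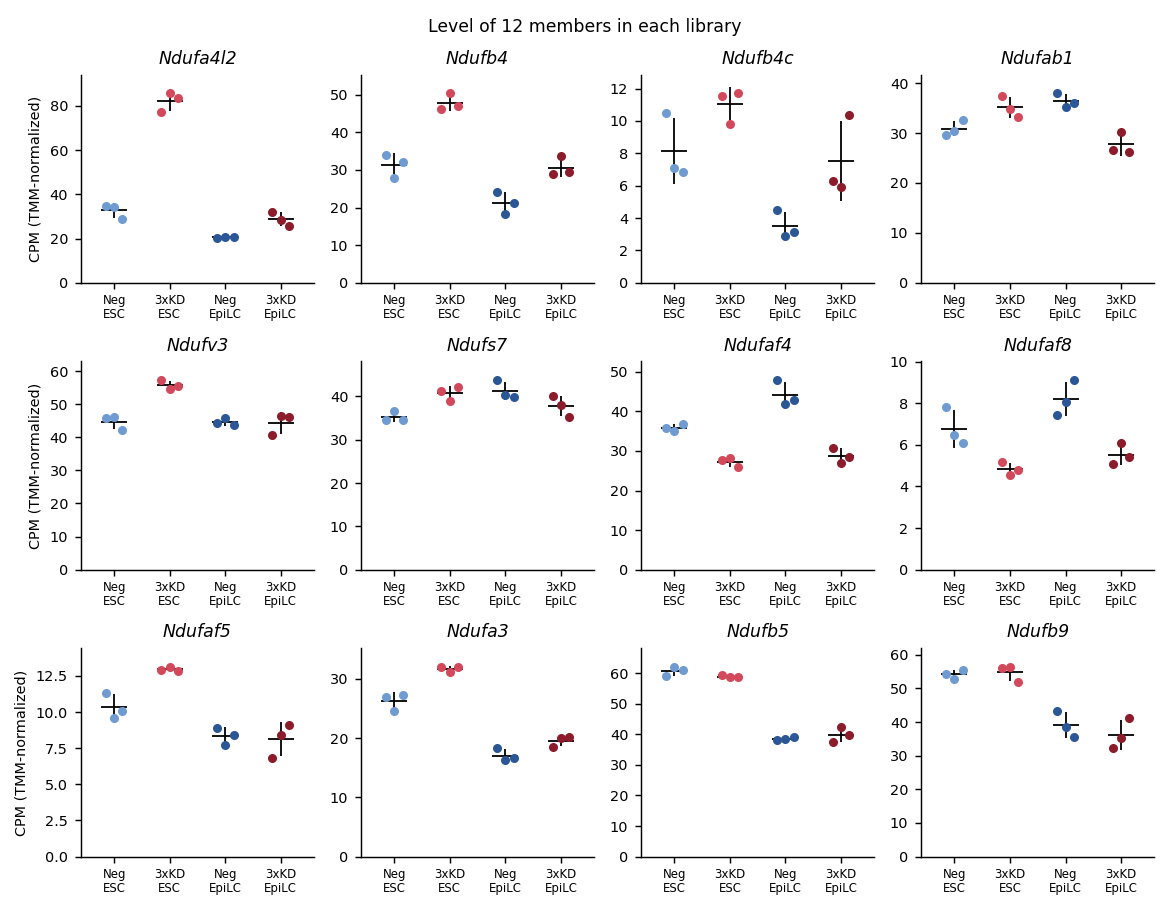
CPM of 12 members in each library (TMM-normalized, axes from 0), with points for libraries and bars for mean ± SD of 3. Ndufa4l2 stands at 77.0 to 85.5 CPM in 3xKD ESCs against at most 34.9 CPM in Neg ESCs, while Ndufaf4 and Ndufaf8 are lower in 3xKD in both states.

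Ndufv3, an accessory N-module subunit, changed in the shares of its transcripts. Its summed counts are not scaled for transcript length, and its transcripts differ in length. Summed over transcripts it was at 45.8, 46.0 and 42.1 CPM in Neg ESCs and 57.2, 54.7 and 55.6 CPM in 3xKD ESCs (0.32 ± 0.06, adjusted p = 0.00014). In EpiLCs day 2 it was at 44.4, 45.9 and 43.6 CPM in Neg and 40.6, 46.4 and 46.0 CPM in 3xKD (-0.01 ± 0.06, adjusted p = 0.92). The 3xKD effects differed by -0.33 ± 0.08 (adjusted p = 0.0069), a call that 11 of 20 alternative fits lost. With transcript-length offsets, the difference in EpiLCs was 0.43 and passed (adjusted p = 0.0019). In ESCs the alternative fits gave 0.28 to 0.90, and all 15 kept the call.

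The transcripts of Ndufv3 (17:31739052-31751735, plus strand) differ by exon 3 of 4, a coding exon of 1092 bases (17:31746284-31747375) that only the long transcript, ENSMUST00000046288, contains. Its length is divisible by 3, so that skipping it leaves the reading frame. Its edges are printed from GRCm39 on the plus strand, with 50 exon bases in capitals and 30 intron bases in lower case, since they are where the transcripts part.
5′ edge, chr17:31746254-31746333: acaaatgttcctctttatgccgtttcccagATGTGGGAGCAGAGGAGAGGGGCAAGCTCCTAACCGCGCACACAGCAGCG
3′ edge, chr17:31747326-31747405: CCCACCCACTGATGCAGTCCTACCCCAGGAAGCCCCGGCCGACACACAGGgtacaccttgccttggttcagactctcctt
The long transcript took 23.3%, 21.1% and 20.6% of Ndufv3 TPM in Neg ESCs and 6.61%, 7.39% and 7.92% in 3xKD ESCs. In EpiLCs day 2 it took 24.6%, 28.7% and 26.2% in Neg and 14.4%, 12.1% and 11.1% in 3xKD. 3xKD lay below Neg in every library of both states. In CPM the long transcript averaged 26.0 ± 2.07 in Neg ESCs and 16.2 ± 1.01 in 3xKD ESCs, and 28.5 ± 1.38 and 18.2 ± 0.662 in EpiLCs (SD, n = 3). The short transcript, ENSMUST00000064798, averaged 16.2 ± 0.185 CPM in Neg ESCs and 36.1 ± 1.53 CPM in 3xKD ESCs, and 13.5 ± 0.9 and 21.9 ± 2.86 CPM in EpiLCs. These shares are the authors' quantifier's estimates and were not tested. Of 97 member transcripts with a mean share of at least 5%, 2 (2.06%) had a lower and 3 (3.09%) a higher share in every 3xKD library of both states, against 2.76% and 3.01% of 30678 transcripts of all genes. The others were 1 transcript of Ndufaf5 (higher) and a pair of Ndufaf8 (1 higher, 1 lower).

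**Figure D5:**
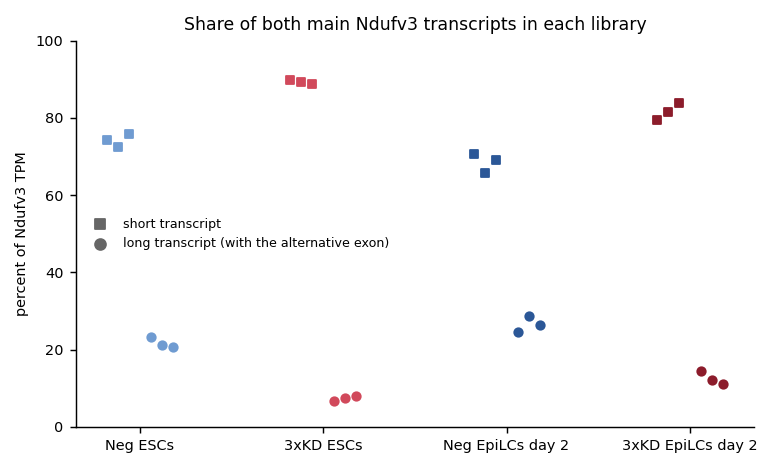
Share of Ndufv3 TPM (percent) of the long and the short transcript in each library, by group. The long transcript lies at 20.6% to 28.7% in Neg libraries and at 6.61% to 14.4% in 3xKD libraries.

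Outside the Nduf names, 13 of 14 other complex I assembly factors were tested, of which 2 were higher and 4 lower in 3xKD ESCs and 1 higher and 3 lower in 3xKD EpiLCs. Genes averaging 5 CPM or more gave 27.3% higher and 31.4% lower in ESCs and 25.3% and 32% in EpiLCs. Timmdc1, a membrane-arm assembly factor, was higher by 0.47 ± 0.07 and 0.50 ± 0.07 (adjusted p = 6e-05 and 2.6e-05). Tmem126b, a component of the assembly complex for the proximal arm, was lower in both states by 0.42 ± 0.09 and 0.72 ± 0.08 on the log2 scale (adjusted p = 0.00079 and 2.2e-06), and it rose in Neg cells on the transition by 0.70 ± 0.08. Dmac2, a distal-arm assembly factor, was lower by 0.45 ± 0.08 and 0.35 ± 0.07 on the log2 scale. Unlike Ndufb4, these factors were not set against the medians of their chromosomes.

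Of the 7 mitochondrially encoded complex I subunits, 1 was higher and 2 lower in 3xKD ESCs, 2 were higher in 3xKD EpiLCs, and the 3xKD effect was more positive in EpiLCs for 2, mt-Nd1 (0.55 ± 0.13, adjusted p = 0.0066) and mt-Nd2 (0.75 ± 0.13, adjusted p = 0.00048). In 3xKD ESCs mt-Nd1 was at -0.76 ± 0.09 (adjusted p = 3.8e-06) and mt-Nd2 at -0.45 ± 0.09 (adjusted p = 0.00054), while mt-Nd6, which is transcribed from the other strand, was at 0.99 ± 0.13 (adjusted p = 8.5e-06). The mitochondrial subunits summed to 1324 to 1755 CPM in Neg ESCs and 1214 to 1437 CPM in 3xKD ESCs, and these ranges overlapped. Over genes averaging 5 CPM or more, 27.3% were higher and 31.4% lower in ESCs and 25.3% and 32% in EpiLCs.

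Among the nuclear subunits of the other complexes in 3xKD ESCs, 3 of 4 tested for complex II, 4 of 9 for complex III, 3 of 10 for complex IV and 9 of 17 for complex V were higher and none was lower, beside 9 of 37 complex I subunits higher and none lower. In 3xKD EpiLCs 1, 1, 2 and 4 of them were higher and none was lower, where 4 of 37 complex I subunits were lower and 2 higher. On the transition in 3xKD cells 4 of 4, 9 of 9, 7 of 10 and 16 of 17 fell, beside 19 of the 37 complex I subunits. The medians were -0.45 for complex III, -0.54 for complex IV and -0.48 for complex V, beside -0.28 for the complex I subunits. Genes averaging 5 CPM or more gave 27.3% higher and 31.4% lower in 3xKD ESCs, beside 24.3% of the complex I subunits higher. They gave 25.3% and 32% in 3xKD EpiLCs, and 32.8% of them fell on the transition in 3xKD cells. The counts of the complexes were not tested against these shares or each other.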

How the data were processed

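Per the labels, the authors trimmed reads with Trim Galore 0.6.7, mapped them to GRCm39 with STAR 2.7.9a and quantified transcripts with Salmon 1.10.1. The deposited tables list, for every transcript, estimated counts that the authors left unscaled. They also list TPM, which the authors obtained from Salmon as length-corrected shares of each library. Titles, not the cell-type field of the labels, gave the groups, since that field names 1 state per line. The labels name polyA RNA and describe an rRNA-depletion kit.

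Gene sums of the estimated counts, rounded to whole numbers, were tested with edgeR 4.0.16 (R 4.3.3; quasi-likelihood test, TMM, Benjamini-Hochberg adjustment) in 1 fit of all 12 libraries. A gene entered with 10 or more counts over all libraries (25446 did). CPM are TMM-normalized, and SE is the size of the log2 fold change divided by the square root of F. DESeq2 1.42.0 was an alternative. The background of genes averaging 5 CPM or more and the sum of Ndufb4 with its copies were chosen after seeing the data. Coordinates are those of the GRCm39 annotation unless another build is named, and promoters are from RefSeq. The fit was tested on simulated data.

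The members and lists were chosen with earlier results of these data known. Genes were named by rule: the nuclear core subunits (1 is not reported here but enters all counts), members past both limits, the 3 members with the largest changes in each direction per comparison, Ndufa4, Ndufa4l2 and untested members. Ndufa7, Ndufa10, Ndufa12, Ndufaf7 and Ndufs5 were named after their values were seen. Replicate numbers did not pair the libraries (correlations of deviations -0.135 to 0.0999).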

Additional observations from a re-analysis of the deposited data

Results flagged for a closer look

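For 6 members the 3xKD effect differed between EpiLCs day 2 and ESCs in the test of the difference itself (edgeR's quasi-likelihood test, Benjamini-Hochberg adjustment over all genes). All 6 had the lower value in EpiLCs. They are 12.2% of the 49 tested members, near the 11.1% called lower among genes averaging 5 CPM or more, of which 9.66% were called higher. The differences in log2 fold change were -0.85 for Ndufa4l2, -0.58 for Ndufab1, -0.33 for Ndufv3, -0.33 for Ndufs7, -0.32 for Ndufa10 and -0.24 for Ndufv2.

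Ndufa4l2 was higher in 3xKD in both states, and the gap was smaller in EpiLCs. Ndufab1 had all 3xKD libraries above Neg in ESCs and below it in EpiLCs. Ndufa10 was lower in 3xKD EpiLCs, and Ndufv3, Ndufs7 and Ndufv2 were higher in 3xKD ESCs, where 11 of 15 alternative fits lost the call of Ndufs7. With transcript-length offsets, Ndufa4l2 alone kept its call. The calls of Ndufs7, Ndufv3 and Ndufv2 were close to the limit of 0.01. Ndufs7 lost its call without any of 9 of the 12 libraries taken singly, with values between -0.36 and -0.31. Ndufv3 lost it without the third Neg ESC library (-0.29, adjusted p = 0.024), any 3xKD ESC library, Neg EpiLC library 2 or 3 or the first 3xKD EpiLC library (-0.27, adjusted p = 0.015). Ndufv2 lost it without Neg ESC library 1 or 3, 3xKD ESC library 3 or Neg EpiLC library 3, with values between -0.24 and -0.22.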

How the results depend on the processing

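Over the named members, 1561 of 1685 alternative values kept their side of the limit, some that did not pass with another sign, 112 fell short of it, 11 newly passed it, and 1 passed it with the opposite sign. That 1 was Ndufv3 in EpiLCs (3xKD against Neg), at 0.43 with transcript-length offsets, which add the authors' effective lengths to the fit. The offsets also gave, for 3xKD against Neg, 7 members higher, 1 lower and 4 past both limits in ESCs and 2 lower in EpiLCs; on the transition 2 higher, 9 lower and 2 past both limits in Neg and 13 lower and 3 past both limits in 3xKD; and 1 difference between states. Over all tested genes, too, the offsets gave fewer calls in both directions in every comparison. An adjusted p of 0.05 gave 20 members higher in 3xKD ESCs. For members lower in 3xKD ESCs, DESeq2, upper-quartile factors, no filter, the replicate block and only the groups compared each gave 1. With library size alone the median in EpiLCs (3xKD against Neg) was 0.049, 2 members rose in Neg, 2 differed between states and the median of that difference was -0.053. Upper-quartile factors gave medians of -0.013 in Neg and -0.19 in 3xKD on the transition and 3 members past both limits in 3xKD. In 3xKD 2 members rose with RLE or upper-quartile factors, library size alone, filterByExpr or an adjusted p of 0.05. DESeq2 gave 3 differences between states. The replicate block, whose numbers do not pair the libraries, also gave 3. The log2 ratio of summed levels with TPM in place of CPM was 0.067 (3xKD against Neg, ESCs), -0.14 (EpiLCs), 0.089 (Neg transition, which was -0.13 in CPM) and -0.12 (3xKD transition). The cause was not tested.

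Leaving out 1 library at a time gave 9 to 14 members higher, 1 to 2 lower and 1 to 3 past both limits in 3xKD ESCs (median 0.14 to 0.18). In 3xKD EpiLCs it gave 5 to 6 higher and 6 to 7 lower, with 2 to 3 past both limits (median -0.025 to 0.051). On the Neg transition 2 to 5 rose and 12 to 14 fell, with 3 to 6 past both limits (median -0.14 to -0.034). On the 3xKD transition 1 rose and 18 to 26 fell, with 3 to 7 past both limits (median -0.30 to -0.20). Between states 3 to 5 members differed, all lower (median -0.21 to -0.094). Log2 ratios of summed CPM stayed within 0.144 to 0.166, -0.0454 to -0.00117, -0.154 to -0.116 and -0.334 to -0.290. With 3 libraries a group, an exact permutation test of a single value cannot go below 0.1, two-sided.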

Other observations

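Among 10 regulators of respiratory genes, 2 were higher and 5 lower in 3xKD ESCs, and 1 was higher and 5 lower in 3xKD EpiLCs. The shares over genes averaging 5 CPM or more were 27.3% and 31.4% in ESCs and 25.3% and 32% in EpiLCs. Yy1, a zinc-finger factor, was lower by 0.67 ± 0.04 and 0.62 ± 0.04 on the log2 scale (adjusted p = 1.6e-09 and 3.8e-09). Tfb2m, a mitochondrial transcription factor, was lower by 1.28 ± 0.08 in ESCs and 0.66 ± 0.08 in EpiLCs on the log2 scale (adjusted p = 2.9e-09 and 3.7e-06), and its 3xKD effect differed between states by 0.62 ± 0.11 (adjusted p = 0.0012). Ppargc1b, a coactivator of mitochondrial genes, was higher by 0.89 ± 0.09 and 1.02 ± 0.09 (adjusted p = 5.3e-07 and 9e-08), whereas its relative Pprc1 was at -0.44 ± 0.04 and -0.41 ± 0.04. Gabpa was higher in 3xKD ESCs (0.20 ± 0.04, adjusted p = 0.00059), and Nrf1 was at -0.20 ± 0.05 (adjusted p = 0.0035). The regulators, too, were not set against the medians of their chromosomes.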
